A study of Mus musculus with 16 samples.

Results

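Cyp4a10, Cyp4a14, Ehhadh, Acaa1b, Acot1, Acot3, Vnn1, Pex11a and Cpt1b are target genes of PPAR alpha that encode enzymes of omega oxidation, peroxisomal beta-oxidation and acyl-CoA handling, with a peroxisome membrane protein among them. These 9 genes were chosen by symbol, as the rows of a liver transcript table whose Ensembl identifiers map to them, among 55487 gene rows in all. Each of the 9 was present, and all 9 had a mean TPM (an abundance per exon length and per library total) of at least 1, as did 11839 genes in all, which were tested. Liver RNA was sequenced from 16 male C57BL6/J mice made obese on a diet with 60 kcal% fat, with 1 library per mouse and 4 mice per group. The study asked whether dietary protein alters the liver response to low doses of G108, a long-acting agonist of the glucagon receptor. Vehicle SP mice received vehicle on a high-fat diet of standard protein content, and vehicle HP mice received vehicle on a high-fat diet of high protein content. G108 SP and G108 HP mice were given G108 at 2.5 nmol/kg on the same diets. By the sample labels, high-fat feeding began at 10 weeks of age and lasted 8 weeks, injections were subcutaneous and daily for 22 days, and liver was taken on day 25 after a 4 h fast. The study's methods differ from these labels on the age, the weeks of feeding and the final day. All groups share the strain, the sex and the high-fat feeding, so no lean or chow-fed liver stands beside them. The tissue was whole liver, in which fewer cells of a type and less RNA per cell cannot be told apart.

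PPAR alpha is a nuclear receptor that binds fatty acids and, paired with RXR, switches on genes of fatty acid breakdown in hepatocytes, most strongly in fasting and on exposure to fibrate drugs. Its targets act in sequence: CYP4A enzymes add a hydroxyl group to the far end of a fatty acid, peroxisomal enzymes shorten long and dicarboxylic acyl chains, and thioesterases release free acids from coenzyme A. In rodent liver the Cyp4a genes and the peroxisomal enzymes are the classical readout of the receptor's activity. Glucagon is the fasting hormone that drives hepatic glucose output and fat oxidation.

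The 9 genes did not move as a block with G108. On SP, Pex11a was lower with G108 at an adjusted p under 0.05 in limma's moderated test, 1 of 9 members against 2.72% of all genes tested. On HP 0 of 9 passed in limma, against 1.22% of all genes called. At an unadjusted limma p under 0.05 on HP there were 3 of 9 (Pex11a, Vnn1 and Cyp4a10, all lower), against 1337 of all 11839 genes tested. On SP 5 of 9 were below that p, against 2098 of all genes tested. Of these 5, Pex11a, Vnn1 and Acaa1b were lower and Cyp4a14 and Ehhadh higher. By voom on recovered reads, limma's model for counts, 0 of 9 also passed on HP. Averaged over both diets, a contrast of 8 mice against 8 that was added after the data were seen, Pex11a and Vnn1 were lower, 2 of 9 against 5.81% of all genes. No member was called higher in these contrasts. Cyp4a14, Ehhadh, Acot1 and Acot3 had higher means with G108 on SP without passing the test. Over the 9 genes the log2 fold change had a median of 0.18 on SP, -0.38 on HP and -0.08 over both diets, beside -0.01, -0.00 and -0.00 over all genes tested.

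Levels are given as scaled TPM: the deposited TPM, which are per exon length, divided by a factor per library that sets the typical gene to the same level in every library (median of ratios). The factors ran from 0.681 to 1.54 and their mean was highest in the G108 SP group. Depth, recovered from the steps of low TPM values, ranged from 27.8 to 45.03 M assigned reads per library. Without that scaling the median gene was 0.60 higher on the log2 scale with G108 on SP, 0.09 higher on HP and 0.35 lower on HP than on SP with G108 (log2 -0.35), so changes below are relative to the typical gene. Hepatocyte markers were abundant in every library (6 of 6 present, summed level 25856 to 38739 scaled TPM). Vehicle SP mouse 4 and G108 HP mouse 3 had the lowest sums of these markers (25856 and 28785) and the highest sums of 5 red blood cell markers (3094 and 2388, against 656 to 1307 in the other libraries). No member gained or lost a call when either of these libraries was left out. Without vehicle SP mouse 4 the log2 fold change with G108 on SP moved from 0.63 to 0.37 for Ehhadh and from 0.31 to 0.0146 for Acot1.

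**Figure D1:**
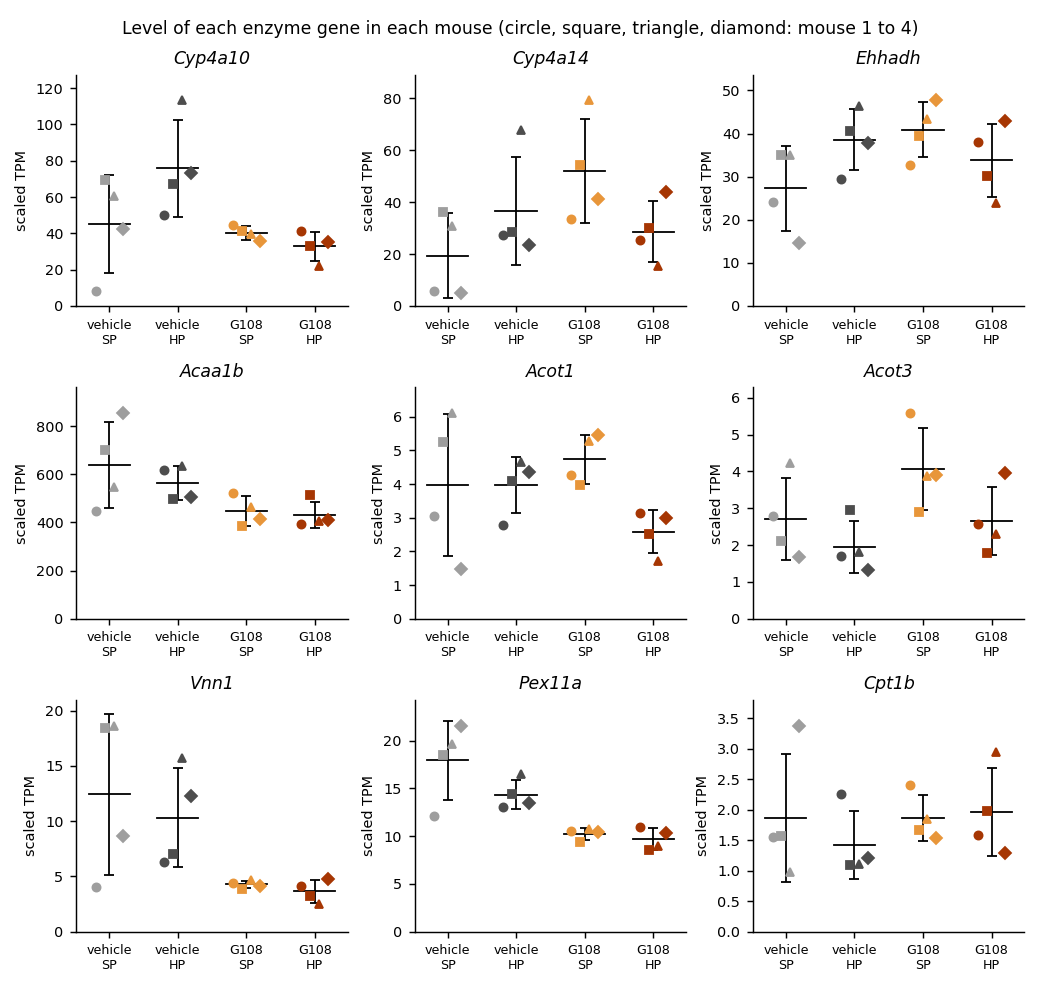
Level of each of the 9 genes in scaled TPM (vertical axes, from 0) in the 4 mice of each group, with the group mean as a horizontal line and the SD as an error bar. Pex11a lay between 8.53 and 10.99 in all 8 G108-treated mice and between 12.1 and 21.5 in all 8 vehicle-treated mice, while Cyp4a14 ranged from 5.06 to 36.1 within vehicle SP alone.

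Pex11a showed the clearest difference with G108. It encodes a membrane protein that elongates peroxisomes before they divide, and is a marker of peroxisome proliferation. In vehicle SP mice 1 to 4 its level was 12.1, 18.4, 19.6 and 21.5 scaled TPM, and in vehicle HP mice it was 13.1, 14.4, 16.5 and 13.4. With G108 it was 10.5, 9.35, 10.7 and 10.4 on SP and 10.99, 8.53, 8.93 and 10.3 on HP. Every G108-treated mouse lay below every vehicle-treated mouse on its own diet and across diets. Pex11a was the only member whose groups did not overlap on SP, where 4.69% of all genes were lower in every G108 mouse, and over both diets, where 0.946% were. On SP the mean fell from 17.9 ± 4.09 to 10.2 ± 0.607 (SD, n = 4), a log2 fold change of -0.72 (SE 0.14, limma adjusted p = 0.0132). On HP the means were 14.4 ± 1.54 and 9.68 ± 1.15, a log2 fold change of -0.52 (SE 0.14, limma adjusted p = 0.109). Over both diets it fell by 0.62 on the log2 scale (SE 0.10, limma adjusted p = 0.00174). The call on SP was lost without G108 SP replicate 2 (limma adjusted p = 0.0508), in a fit of only these groups (0.107), on TPM rescaled without mitochondrial and Mup genes (0.0664) and on TPM as deposited, where the log2 fold change was -0.00 beside a median of 0.60 over all genes.

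The Pex11a gene lies on chromosome 7 from 79735957 to 79743131, minus strand (GRCm38), and shares no 31-base sequence of its exons with the annotated transcripts of any other gene. Only the sense direction of annotated transcripts was compared, so sequence elsewhere in the genome was not searched. The antisense gene Gm44706 overlaps its bounds and shares 0 exon bases. Gm44706 was also lower over both diets (log2 fold change -0.67, limma adjusted p = 0.0283, or 0.138 on TPM as deposited). The stretch from 250 bases before to 50 after the start of Pex11a is shown from RefSeq, because this member carried the G108 result. It is chr7:79743082-79743381 of GRCm38.p6, read on the minus strand.
Pex11a: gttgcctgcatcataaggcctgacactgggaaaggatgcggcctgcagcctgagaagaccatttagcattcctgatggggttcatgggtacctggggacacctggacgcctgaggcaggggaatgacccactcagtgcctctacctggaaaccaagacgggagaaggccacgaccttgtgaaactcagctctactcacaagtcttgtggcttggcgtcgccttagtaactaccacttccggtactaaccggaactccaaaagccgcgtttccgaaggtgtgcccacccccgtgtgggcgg
The receptor's response element is a direct repeat of AGGTCA spaced by 1 base. Neither that repeat, with up to 2 mismatches, nor the hexamer AGGTCA was found on either strand of this stretch, which says only that these letters are not in this window. Among the members the promoter table held Pex11a, Acaa1b, Acot1, Acot3 and Ehhadh, with 6 starts. The repeat was in 0 of the 6, exactly or with up to 2 mismatches, beside 0.0396% and 3.86% of 32851 promoters of the same length. The hexamer was in both starts of Acot3, whose windows overlap (from 84051894 and from 84051901) and hold the same site, beside 16.3% of all promoters. Cyp4a10, Cyp4a14, Vnn1 and Cpt1b had no entry.

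Vnn1, which encodes the pantetheinase vanin-1 that splits pantetheine into cysteamine and the vitamin precursor of coenzyme A, fell most in size. Its level in vehicle SP mice 1 to 4 was 4.03, 18.4, 18.6 and 8.70 scaled TPM, and in vehicle HP mice 6.29, 7.05, 15.7 and 12.3. G108-treated mice had 4.40, 3.87, 4.69 and 4.13 on SP and 4.09, 3.23, 2.47 and 4.79 on HP. All 8 G108-treated mice lay at or below 4.79, and the single vehicle-treated mouse in that range was vehicle SP mouse 1. On HP the groups did not overlap, as for Pex11a and Cyp4a10, so that 3 of 9 members were lower in every G108 mouse, against 3.95% of all genes. Mean levels were 12.4 ± 7.27 and 4.27 ± 0.350 on SP (SD, n = 4, log2 fold change -1.15, SE 0.37, limma adjusted p = 0.128). The HP means were 10.3 ± 4.46 and 3.64 ± 1.01 (log2 fold change -1.23, SE 0.37, limma adjusted p = 0.157). Over both diets Vnn1 fell by 1.19 (SE 0.26, limma adjusted p = 0.0142), and when any library was omitted the limma adjusted p lay between 7.34e-04 and 0.0346. Without vehicle SP mouse 1 it was called on each diet as well (limma adjusted p = 0.0103 on SP and 0.0435 on HP).

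**Figure D2:**
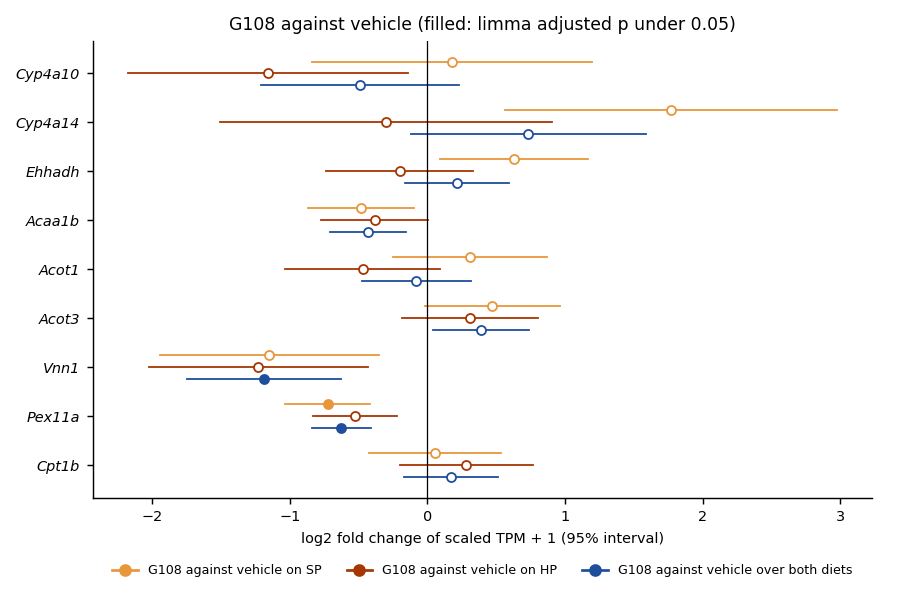
Log2 fold change of scaled TPM + 1 for G108 against vehicle (horizontal axis) with its 95% interval for each gene, on SP, on HP and over both diets. Filled points passed a limma adjusted p of 0.05: Pex11a on SP (-0.72), and Pex11a (-0.62) and Vnn1 (-1.19) over both diets, which is the contrast added after the data were seen.

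Cyp4a10 and Cyp4a14 encode the omega hydroxylases of fatty acids, neighbours on chromosome 4 (115518264 to 115533649, plus strand, and 115486200 to 115496142, minus strand, GRCm38). They are the most responsive genes to PPAR alpha ligands in mouse liver, and their levels differed more between mice of the same group than those of almost all genes. The SD within groups was 0.88 for Cyp4a14 and 0.74 for Cyp4a10 on the log2 scale, above that of 98.7% and 97.3% of genes tested, whose median was 0.21. Cyp4a10 was 8.34, 69.5, 60.3 and 42.2 scaled TPM in vehicle SP mice 1 to 4 and 49.9, 67.0, 113 and 73.1 in vehicle HP mice. With G108 it was 44.8, 41.5, 39.4 and 35.6 on SP and 41.0, 33.1, 22.0 and 35.0 on HP. Vehicle SP mouse 1 stood far below its group, and all 4 G108 HP mice lay below all 4 vehicle HP mice. On HP the means were 75.8 ± 26.8 and 32.8 ± 7.96 (SD, n = 4, log2 fold change -1.16, SE 0.48, limma adjusted p = 0.341). That contrast passed 0.05 only when vehicle SP mouse 1 was left out (limma adjusted p = 0.0290), which removes its spread from the shared estimate. On SP the log2 fold change was 0.18 (95% interval -0.84 to 1.20, limma adjusted p = 0.845), and it turned to -0.47 without vehicle SP mouse 1.

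Cyp4a14 had the largest fitted log2 fold change of the members on SP, in the direction opposite to Pex11a and Vnn1. Its level was 5.68, 36.1, 30.8 and 5.06 scaled TPM in vehicle SP mice 1 to 4 and 27.2, 28.3, 67.6 and 23.3 in vehicle HP mice. The G108 values were 33.6, 54.4, 79.2 and 41.1 on SP and 25.6, 30.0, 15.3 and 43.8 on HP. Vehicle SP mice 1 and 4 were low and mice 2 and 3 high, and the latter lay within the G108 SP range or near it. The means on SP were 19.4 ± 16.3 with vehicle and 52.1 ± 20.03 with G108 (SD, n = 4, log2 fold change 1.77, SE 0.56, limma adjusted p = 0.121). The HP means were 36.6 ± 20.7 and 28.7 ± 11.8 (log2 fold change -0.30, SE 0.56, limma adjusted p = 0.902). The interaction of G108 and diet was -2.07 (SE 0.80, limma adjusted p = 0.575). Without vehicle SP mouse 4 the difference on SP was 1.34, and on TPM as deposited it passed the test (2.49, limma adjusted p = 0.00391).

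Reads of Cyp4a10 are shared with near-identical neighbours: 44.9% of its 31-base exon sequences also occur in another gene, 36.5% in Cyp4a32 and 26.5% in Cyp4a31, against 1.99% for Cyp4a14. The first 90 coding bases (GENCODE, GRCm38) are printed to show how few positions tell Cyp4a10 from its neighbours, with capitals marking bases that differ from Cyp4a10.
Cyp4a10: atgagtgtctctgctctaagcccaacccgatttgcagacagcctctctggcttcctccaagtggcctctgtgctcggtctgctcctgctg
Cyp4a32: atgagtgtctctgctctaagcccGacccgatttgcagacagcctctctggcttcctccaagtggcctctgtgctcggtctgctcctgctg
Cyp4a31: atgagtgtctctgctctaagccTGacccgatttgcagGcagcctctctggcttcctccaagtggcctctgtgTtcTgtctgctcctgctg
Cyp4a14: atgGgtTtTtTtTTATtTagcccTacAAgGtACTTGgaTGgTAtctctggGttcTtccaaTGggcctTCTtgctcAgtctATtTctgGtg
Cyp4a32 differed at 1 of these bases, Cyp4a31 at 5 and Cyp4a14 at 34, and over the whole coding sequence Cyp4a32 was 97.2% and Cyp4a31 96.6% identical to Cyp4a10. How the authors' counting split such reads is not given in the sources used here, so the Cyp4a10 level carries that uncertainty. Cyp4a32 had mean levels of 13.3 ± 3.76 with vehicle and 13.3 ± 5.21 with G108 on SP, and 15.4 ± 6.06 and 8.90 ± 1.08 on HP (SD, n = 4). Cyp4a31 had 2.42 ± 1.34 and 2.65 ± 0.142 on SP, and 4.21 ± 1.82 and 1.97 ± 0.561 on HP. Neither passed the test in any contrast, and their log2 fold changes on HP, -0.67 and -0.77, had the sign of that of Cyp4a10 (limma adjusted p = 0.289 and 0.244).

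Cyp4a12a, the male-typical omega hydroxylase of mouse liver, fell with G108 on SP from 29.1 ± 10.03 to 11.1 ± 2.63 scaled TPM (SD, n = 4, log2 fold change -1.26, limma adjusted p = 0.0149). On HP its means were 37.8 ± 6.07 and 18.9 ± 4.90 (log2 fold change -0.98, limma adjusted p = 0.0907). Over both diets Cyp4a12a and its neighbour Cyp4a12b were lower (log2 fold changes -1.12 and -0.56, limma adjusted p = 0.00161 and 0.0476). On TPM as deposited the calls of Cyp4a12a on SP (limma adjusted p = 0.145) and of Cyp4a12b over both diets (0.463) were lost. Of 11 other omega-oxidation genes tested, 1 was lower on SP, 0 on HP (4 below an unadjusted p of 0.05), and 2 over both diets, and 0 were called higher in these contrasts. Of all 11839 genes tested, 1337 were below an unadjusted limma p of 0.05 on HP.

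Ehhadh and Acaa1b act in the peroxisome. Ehhadh encodes the bifunctional enzyme that hydrates and oxidises enoyl-CoA chains, and Acaa1b encodes a thiolase that cuts off acetyl-CoA at the end of each round. Ehhadh was 24.2, 35.1, 35.1 and 14.7 scaled TPM in vehicle SP mice 1 to 4 and 29.5, 40.6, 46.4 and 37.7 in vehicle HP mice. With G108 it was 32.7, 39.5, 43.5 and 47.7 on SP and 38.1, 30.3, 23.8 and 42.9 on HP. The groups overlapped on both diets, and the lowest values came from the libraries with the highest red blood cell markers, vehicle SP mouse 4 and G108 HP mouse 3. On SP the mean was 27.3 ± 9.84 with vehicle and 40.8 ± 6.37 with G108 (SD, n = 4, log2 fold change 0.63, SE 0.25, limma adjusted p = 0.214). The HP log2 fold change was -0.20 (95% interval -0.74 to 0.33, limma adjusted p = 0.848), and the interaction was -0.83 (SE 0.36, limma adjusted p = 0.575).

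Acaa1b was by far the most abundant member. Its level was 448, 702, 548 and 854 scaled TPM in vehicle SP mice 1 to 4 and 618, 498, 632 and 504 in vehicle HP mice. Under G108 the levels were 524, 384, 464 and 416 on SP and 395, 514, 407 and 409.7 on HP. The groups overlapped on each diet through 1 G108-treated mouse on HP and 1 vehicle-treated mouse on SP. The log2 fold change was -0.48 on SP (SE 0.18, limma adjusted p = 0.191), -0.38 on HP (SE 0.18, adjusted p = 0.446) and -0.43 over both diets (SE 0.13, adjusted p = 0.064). On TPM as deposited the SP value turned to 0.30, beside the median of 0.60 over all genes.

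Acaa1b shares 40.0% of its 31-base exon sequences with its neighbour Acaa1a on chromosome 9, and their coding sequences are 96.5% identical. The first 90 coding bases (GENCODE, GRCm38) show the pair, with capitals at the 3 bases that differ.
Acaa1b: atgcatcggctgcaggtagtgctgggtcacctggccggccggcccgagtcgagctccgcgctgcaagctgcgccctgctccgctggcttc
Acaa1a: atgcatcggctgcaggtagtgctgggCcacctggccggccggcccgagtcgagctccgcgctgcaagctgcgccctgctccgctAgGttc
Acaa1a, present at 65.9 ± 4.59 scaled TPM in vehicle SP mice (SD, n = 4), had log2 fold changes with G108 of -0.14 on SP and -0.25 on HP (limma adjusted p = 0.478 and 0.367). Exons of Dlec1 on the opposite strand cover 11.4% of the exon bases of Acaa1b, and whether the counting used strand is not given in the sources used here. Other thiolase and hydratase relatives, Acaa2 and Hadha of the mitochondrion, passed in none of the contrasts.

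In the wider list of 22 genes of peroxisomal beta-oxidation and its carriers, 0 were called on SP, with 2 at an unadjusted p under 0.05, and 0 on HP, with 5. Of all 11839 genes tested, 2098 on SP and 1337 on HP were below that unadjusted limma p. Over both diets Slc27a2, the very long chain acyl-CoA synthetase, was lower (log2 fold change -0.39, limma adjusted p = 0.0276), although on TPM as deposited its sign turned (0.06). Among 15 peroxisome biogenesis genes 0 were called in any contrast, with 1 gene below an unadjusted p of 0.05 on each diet. Pex11g, a relative of Pex11a, was not called.

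Acot1 and Acot3 belong to a cluster of acyl-CoA thioesterases on chromosome 12 that arose by duplication; Acot1 is cytosolic and Acot3 peroxisomal. Acot1 was 3.04, 5.26, 6.10 and 1.49 scaled TPM in vehicle SP mice 1 to 4 and 2.77, 4.09, 4.65 and 4.36 in vehicle HP mice. In G108-treated mice it was 4.26, 3.97, 5.27 and 5.45 on SP and 3.14, 2.50, 1.72 and 2.99 on HP. All 4 G108 HP mice were below all 4 G108 SP mice, the only member with separate groups between diets, where 2.12% of all genes were lower in every HP mouse. The log2 fold change between HP and SP with G108 was -0.69 (SE 0.26, limma adjusted p = 0.858). For G108 against vehicle it was 0.31 on SP (SE 0.26, limma adjusted p = 0.524) and -0.47 on HP (SE 0.26, limma adjusted p = 0.555). Acot3 ranged from 1.68 to 4.24 in vehicle SP, 1.31 to 2.95 in vehicle HP, 2.90 to 5.58 in G108 SP and 1.80 to 3.94 in G108 HP mice, with overlap throughout. Its log2 fold change with G108 was 0.47 on SP (SE 0.23, limma adjusted p = 0.301) and 0.31 on HP (SE 0.23, limma adjusted p = 0.707).

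Acot1 shares 22.7% of its 31-base exon sequences with other genes, most with Acot2 (16.7%), and Acot3 shares 23.1%. Acot3 also overlaps Gm49366 on the same strand (11.5% of its exon bases) and the antisense gene 4732463B04Rik (9.08%), so its level is less certain than that of Pex11a or Vnn1. Acot2, the mitochondrial thioesterase of the cluster, was 2.97 ± 0.328 scaled TPM in G108 SP and 1.51 ± 0.179 in G108 HP mice (SD, n = 4, log2 fold change -0.66, limma adjusted p = 0.716). Acot4 had log2 fold changes with G108 of 0.30 on SP and 0.22 on HP (limma adjusted p = 0.312 and 0.683).

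Cpt1b encodes the muscle form of carnitine palmitoyltransferase 1, which loads long-chain acyl groups for entry into mitochondria and is scarce in liver beside Cpt1a. It was the least abundant member, from 0.977 to 3.38 scaled TPM in vehicle SP, 1.10 to 2.25 in vehicle HP, 1.54 to 2.41 in G108 SP and 1.30 to 2.95 in G108 HP mice. The groups overlapped in every comparison, and the log2 fold change with G108 was 0.06 on SP (95% interval -0.43 to 0.54, limma adjusted p = 0.903) and 0.28 on HP (95% interval -0.20 to 0.77, limma adjusted p = 0.73). Skeletal muscle markers were near 0 in every library (0 of 8 with a mean TPM of at least 1, summed level 0.25 to 1.52 scaled TPM). Most of Cpt1b lies within the readthrough gene Gm44502 on the same strand, which covers 81.4% of its exon bases, so reads of Cpt1b could be counted for either gene. Gm44502 averaged 14.5 TPM, and with G108 its difference was -0.56 on SP and -0.10 on HP (log2) (limma adjusted p = 0.326 and 0.944). Cpt1a, the liver form, was 23.0 ± 5.34 with vehicle and 35.3 ± 4.97 scaled TPM with G108 on SP (SD, n = 4, log2 fold change 0.62, limma adjusted p = 0.0993) and had a log2 fold change of -0.10 on HP (limma adjusted p = 0.906).

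No member passed the test between the diets. Between HP and SP 0 of 9 passed in limma with vehicle, with Ehhadh and Cyp4a14 at an unadjusted p under 0.05, and 0 of 9 with G108, with Acot1 there. By voom 0 of 9 passed in both. Over all genes 0% were called in both contrasts, with 466 genes at an unadjusted p under 0.05 with vehicle and 639 with G108. The median log2 fold change of the 9 genes between HP and SP was -0.13 with vehicle and -0.29 with G108, beside -0.00 and 0.00 over all genes. For the interaction 0 of 9 and 0% of all genes passed in limma, with 2 members (Cyp4a14 and Ehhadh) and 854 genes at an unadjusted p under 0.05, and voom called 0 as well. Intervals were wide: for Cyp4a10 the 95% interval of the interaction ran from -2.78 to 0.10 on the log2 scale (limma adjusted p = 0.575).

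**Figure D3:**
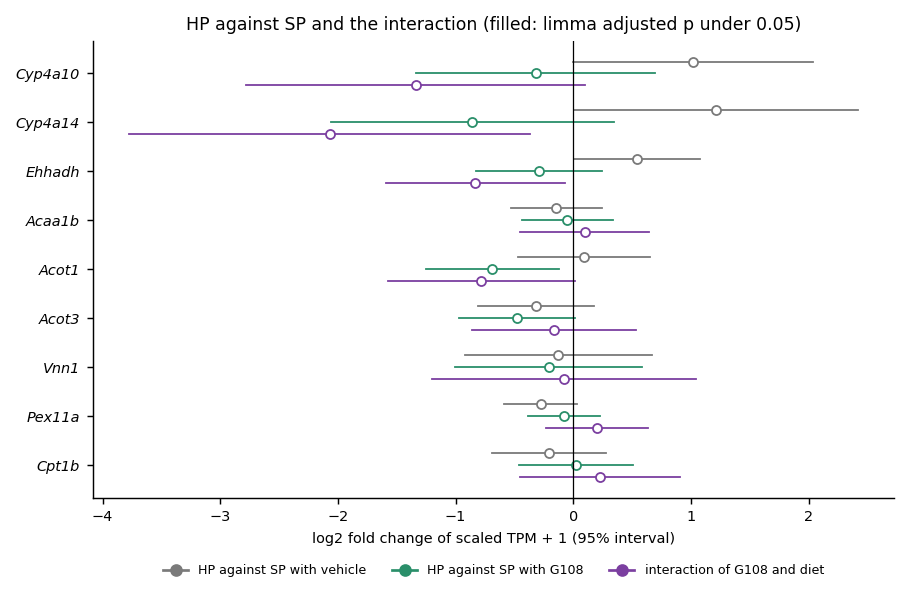
Log2 fold change of scaled TPM + 1 between HP and SP with vehicle and with G108, and the interaction (the G108 effect on HP minus that on SP), with 95% intervals. No point is filled since no member passed a limma adjusted p of 0.05, and the interaction lay furthest from 0 for Cyp4a14 (-2.07).

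The scaling between libraries decides which members are called on SP. On TPM as deposited, 5 members were called higher on SP in limma (Acot1, Acot3, Cpt1b, Cyp4a14 and Ehhadh) and Pex11a was not called, while 9113 of all genes were called higher and 72 lower. On that scale the median gene was 0.60 higher, and Pex11a, Vnn1 and Acaa1b lay below it, as they lay below the median of scaled TPM. On HP, where the median moved by 0.09, 0 of 9 members were called on either scale.

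**Figure D4:**
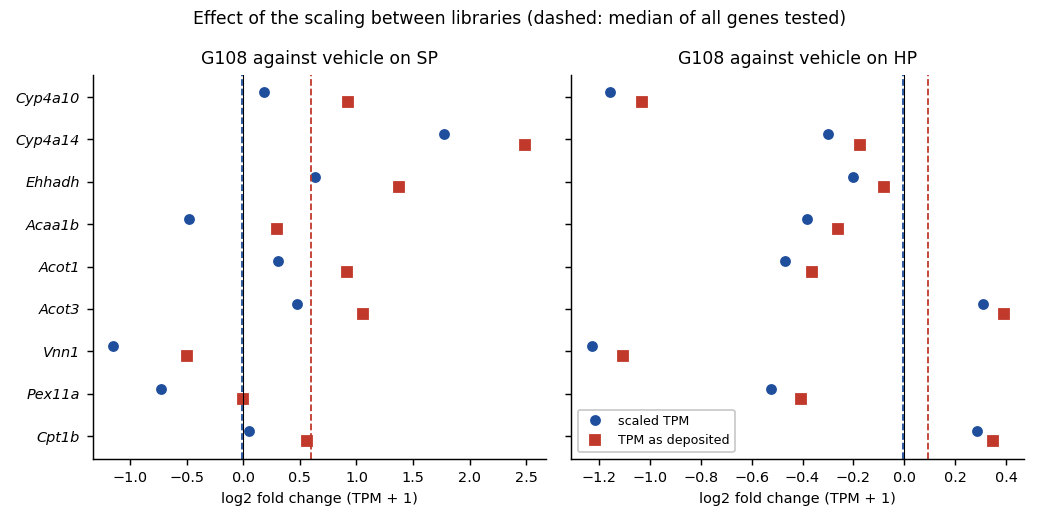
Log2 fold change of each gene with G108 on SP and on HP, from scaled TPM (circles) and from TPM as deposited (squares), with the median of all genes tested as a dashed line of the same colour. On SP the points move together with the median, from -0.01 to 0.60, and the sign turns for Acaa1b (-0.48 to 0.30).

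Within groups, some members went up and down together from mouse to mouse, as did many other genes. Deviations from the group means of log2(scaled TPM + 1) were correlated for the 36 pairs of members over 16 mice, with mice permuted within groups. The median r was 0.34 and 26 of 36 were above 0. By r, 5 pairs passed an adjusted permutation p of 0.05, and by rho 7 did. The closest was Ehhadh with Acot1 (r = 0.945, permutation p = 1.6e-04, adjusted 0.00288, rho = 0.941, permutation p = 1.6e-04, adjusted 0.00576, and r = 0.890 without the 2 mice farthest from the median). Cyp4a10 and Vnn1 followed (r = 0.909, permutation p = 4.1e-04, adjusted 0.00492, rho = 0.797, permutation p = 8.4e-04, adjusted 0.0151, and r = 0.830 without vehicle SP mice 1 and 2). Cyp4a14 and Ehhadh had r = 0.808 (permutation p = 0.00396, adjusted 0.0285, rho = 0.829, permutation p = 0.00442, adjusted 0.0318, and r = 0.737 without 2 mice). Set beside all 11838 other genes tested, given as a description, Ehhadh had an r of larger size with 234 genes than with Acot1, and with 3027 than with Cyp4a14. Its median size of r over all genes was 0.620. For Cyp4a10 that median was 0.210, and 2 genes were closer to it than Vnn1.

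Cpt1b went the other way. It was negatively related to Ehhadh (r = -0.927, permutation p = 1.3e-04, adjusted 0.00288, rho = -0.788, permutation p = 0.00298, adjusted 0.0268) and to Acot1 (r = -0.873, permutation p = 0.0011, adjusted 0.0099, rho = -0.718, permutation p = 0.00942, adjusted 0.0484). Without the 2 farthest mice r was -0.847 and -0.738. Cpt1b had an r of larger size with 488 genes than with Ehhadh and with 1666 than with Acot1, and its median size of r over all genes was 0.623. Cpt1b was highest in vehicle SP mouse 4 (3.38) and G108 HP mouse 3 (2.95), the libraries with the highest red blood cell markers, in which Ehhadh and Acot1 were lowest. Those 2 libraries were the ones left out for Ehhadh with Acot1 and for Ehhadh with Cpt1b.

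**Figure D5:**
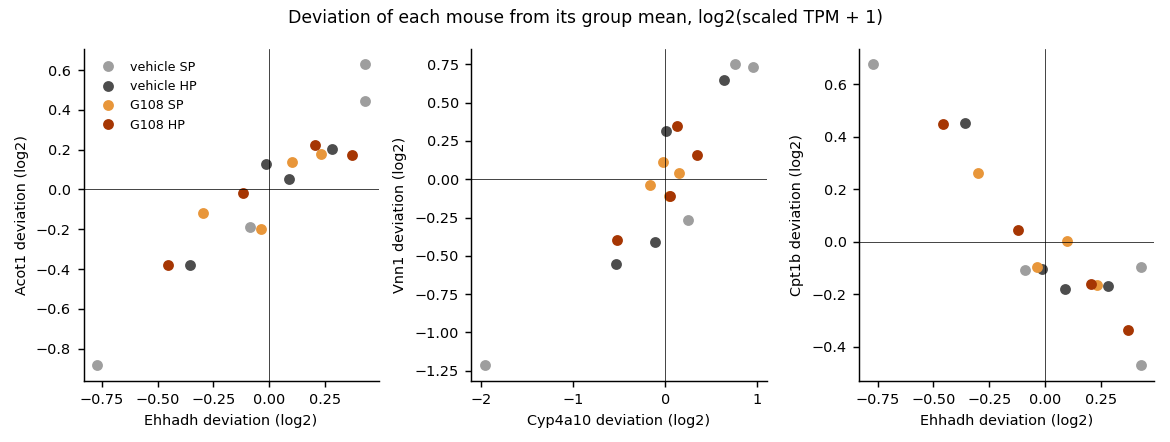
Deviation of each of the 16 mice from its group mean on log2(scaled TPM + 1) for Ehhadh and Acot1 (r = 0.945), Cyp4a10 and Vnn1 (r = 0.909), and Ehhadh and Cpt1b (r = -0.927), coloured by group. The vehicle SP mice lie at both ends of all 3 plots.

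Among the genes most like the mean standardized pattern of the members over the 16 libraries were Akr1c20 (r = 0.826), Cyp4a31 (r = 0.821), Gm4952 (r = 0.821) and Adipor2 (r = 0.816), given as a description. Of the 31-base exon sequences of the member Cyp4a10, 26.5% also occur in Cyp4a31. The part of shared reads in this likeness was not tested. Adipor2 encodes an adiponectin receptor.

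Vnn3, the neighbour and relative of Vnn1, was lower with G108 on each diet. Its mean was 19.7 ± 3.23 and 13.02 ± 1.06 scaled TPM on SP (SD, n = 4, log2 fold change -0.55, limma adjusted p = 0.0182) and 17.8 ± 1.62 and 11.6 ± 1.23 on HP (log2 fold change -0.58, limma adjusted p = 0.0297), although on TPM as deposited its sign on SP turned (0.18). On HP it was not called on TPM as deposited (limma adjusted p = 0.425). Rescaled without mitochondrial and Mup genes, it was called on neither diet (limma adjusted p = 0.155 on SP and 0.0825 on HP). In the list of 13 genes of coenzyme A turnover and pantetheinases it was the only call on each diet, and over both diets Nudt7, a peroxisomal coenzyme A diphosphatase, was lower too (log2 fold change -0.37, limma adjusted p = 0.0301, or 0.07 on TPM as deposited).

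The receptor itself, Ppara, was 9.66 ± 1.18 and 9.41 ± 1.69 scaled TPM with vehicle and G108 on SP (SD, n = 4, log2 fold change -0.04, limma adjusted p = 0.926), and its log2 fold change on HP was -0.30 (limma adjusted p = 0.687). Among 14 genes of the receptor, its partners and coregulators, Ppargc1a was the only call on each diet. Ppargc1a encodes the coactivator PGC-1 alpha, a known target of glucagon signalling. It rose from 0.947 ± 0.450 to 2.56 ± 0.473 on SP (SD, n = 4, log2 fold change 0.89, limma adjusted p = 0.00274) and from 0.988 ± 0.0978 to 2.16 ± 0.322 on HP (0.66, limma adjusted p = 0.0337). Ppargc1a reached the minimum mean TPM of 1 only through the G108 groups. Its deposited TPM averaged 0.741 (SP) and 0.907 (HP) with vehicle, and 3.56 and 2.18 with G108. The HP call was lost on TPM rescaled without mitochondrial and Mup genes (limma adjusted p = 0.0571). Pparg, the receptor of fat storage, was lower over both diets (log2 fold change -0.51, limma adjusted p = 0.0121), but was not called on TPM as deposited (limma adjusted p = 0.175).

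Of 14 tested mitochondrial targets of PPAR alpha, 0 were called on SP with 6 at an unadjusted limma p under 0.05, and 0 on HP with 1. Of all 11839 genes tested, 2098 on SP and 1337 on HP were below that p. They had a median log2 fold change of 0.29 (SP) and -0.12 (HP), beside -0.01 and -0.00 over all genes. Of 16 tested targets with secreted, lipid droplet and uptake roles, Fitm1 was lower on SP (log2 fold change -1.33, limma adjusted p = 0.00188). Over both diets Fitm1, a protein of lipid droplet formation, Angptl4, an inhibitor of lipoprotein lipase, and Txnip, a thioredoxin-binding protein, were lower (log2 fold changes -0.93, -0.80 and -0.64, limma adjusted p = 9.95e-04, 0.00484 and 0.0151). On TPM as deposited Angptl4 and Txnip were not called over both diets (limma adjusted p = 0.0805 and 0.257). Of the 16, 0 were called higher. None was called on HP (0 of 16), where 7 had an unadjusted limma p below 0.05, as had 1337 of all 11839 genes tested.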

How the data were processed

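Liver RNA of 16 mice was sequenced, 4 per group. Per the labels and the study's methods, the authors checked reads with FastQC 0.11.8, aligned them to GRCm38 with HISAT2 2.0.5, made gene counts in featureCounts and deposited TPM, from counts and exon lengths. The authors ran DESeq2 1.36.0 on the counts, which were not used here. Symbols (55141 of 55487 rows), loci and exon lengths came from GENCODE on GRCm38.

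Deposited TPM were divided by median-of-ratios factors from 11591 genes. The 11839 genes whose TPM averaged 1 or more were compared on log2(scaled TPM + 1), with a pseudocount of 1, in limma 3.58.1 (R 4.3.3) with an intensity trend, all 16 libraries and 1 mean per group. P-values were adjusted by Benjamini-Hochberg over all genes tested and called under 0.05. Fold changes on this scale understate the change of genes near 1 TPM. The labels give separate mice, so p-values measure the spread between mice. The fit was tested on simulated data. Assigned reads were recovered from TPM steps (98.8% of 139184 low values within 0.02 of a whole read). They limit precision for Cpt1b (81 to 306 reads), less so for Acaa1b (19542 to 45021). Relations used 100000 permutations within groups. Motifs were searched on both strands.

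The members and lists were chosen with earlier results of these data known. Named genes are the members, their close paralogs, up to 4 called genes per list and contrast, and the 5 genes most like the members; some of these are not reported here. Markers were listed for hepatocytes, skeletal muscle, adipocytes, brown adipocytes, exocrine pancreas, red blood cells, Kupffer cells and kidney. Alternatives were TPM as deposited or rescaled without mitochondrial and Mup genes, a pseudocount of 0.1, no filter, a minimum mean TPM of 5, only the groups compared, a replicate block, array quality weights and each library left out. The contrast over both diets and voom on recovered reads were added after the data were seen. Python 3 scripts with numpy, scipy and pandas were used for the rest. Protein sequences were not used here.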

Additional observations from a re-analysis of the deposited data

Results flagged for a closer look

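Of 36 sets of 4 mice (9 genes in 4 groups), 3 held a mouse whose gap to its neighbour was beyond Dixon's 95% critical share of the group's range, and chance gives about 1 in 20. Cyp4a14 in vehicle HP mouse 3 was 67.6 scaled TPM, with the next mouse at 28.3. Acaa1b in G108 HP mouse 2 was 514 with the next at 409.7, and Cpt1b in vehicle HP mouse 1 was 2.25 with the next at 1.21. Without vehicle HP mouse 3 the log2 fold change of Cyp4a14 with G108 on HP moved from -0.30 to 0.03.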

How the results depend on the processing

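The fall of Vnn1 over both diets was called under all 8 alternatives and with each of 16 libraries left out, and that of Pex11a under 7 of 8 and with each library left out, the exception being TPM as deposited (log2 fold change -0.20). Members called on SP numbered 1, but 5 on TPM as deposited, 0 on TPM rescaled without mitochondrial and Mup genes (Pex11a limma adjusted p = 0.0664), 0 with only the groups compared, 3 with array quality weights (Acaa1b, Pex11a and Vnn1) and 0 to 2 with a library left out. On HP 0 became 3 with array quality weights (the same 3) and 0 to 3 with a library left out (3 without vehicle SP replicate 1). Over both diets 2 became 5 on TPM as deposited and 2 to 4 with a library left out. Acaa1b was also called lower over both diets under 1 alternative other than TPM as deposited (limma adjusted p = 0.00285). Between HP and SP with G108 0 became 1 with array quality weights (Acot1).

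All genes called on SP were 322 in limma, 9185 on TPM as deposited, 103 with only the groups compared, 1821 with array quality weights and 158 to 471 with a library left out. On HP 145 became 43 with no filter, 77 at a mean TPM of at least 5, 52 with only the groups compared, 795 with array quality weights and 17 to 216 with a library left out (17 without G108 HP replicate 3). Over both diets 688 became 7335 on TPM as deposited, 396 at a mean TPM of at least 5, 2188 with array quality weights and 461 to 871 with a library left out. Between HP and SP 0 became 297 with G108 under array quality weights, and with vehicle 1 with no filter and 0 to 2 with a library left out. The interaction had 1 with no filter. Voom called 350 on SP and 139 on HP. The causes were not tested.

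Mouse numbers are shared between groups, but the labels do not say that they pair mice, and deviations of 24 same-numbered pairs had a mean correlation of -0.05 (0.02 for 72 other pairs). With the number as a replicate block, calls were 213 on SP, 35 on HP and 1 between HP and SP with vehicle. No member gained or lost a call.

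Among the 9 members, signs that turned belonged to values that had not passed the test. On TPM as deposited, log2 fold changes turned for Acaa1b (0.30 on SP, 0.0188 over both diets, 0.0559 between HP and SP with vehicle, -0.56 for the interaction), Acot1 over both diets (0.27), Cpt1b (-0.29 between HP and SP with G108, -0.22 for the interaction), Pex11a for the interaction (-0.40) and Vnn1 between HP and SP with vehicle (0.0365). Rescaled without mitochondrial and Mup genes, Acaa1b turned for the interaction (-0.0479) and Cpt1b between HP and SP with G108 (-0.10). With array quality weights, Acot1 between HP and SP with vehicle was -0.14, Cpt1b between the diets with G108 -0.0586, Cyp4a10 on SP -0.24, Pex11a between HP and SP with G108 0.0167 and the Vnn1 interaction 0.17. With libraries left out, values that turned ranged from -0.47 to 0.50 for Cyp4a10 on SP, -0.10 to 0.28 for Cpt1b on SP, -0.53 to 0.0343 for Cyp4a14 on HP and -0.23 to 0.0246 for Acot1 over both diets. Between HP and SP with G108 they ranged from -0.14 to 0.0304 for Acaa1b and -0.13 to 0.13 for Cpt1b. With vehicle they ranged from -0.30 to 0.00679 for Acaa1b, -0.20 to 0.31 for Acot1, -0.54 to 0.12 for Vnn1 and -0.36 to 0.0198 for Cpt1b, and for the interaction from -0.0565 to 0.25 for Acaa1b and -0.33 to 0.33 for Vnn1. Depth limits Cpt1b most (81 to 306 recovered reads per library).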

Other observations

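The remaining marker lists gave these values. Brown adipocyte markers summed to 39.6 to 63.1 scaled TPM in G108 SP and 33.1 to 48.2 in G108 HP mice, against 10.2 to 32.01 and 17.01 to 34.3 with vehicle. That sum rests on Elovl3, the only 1 of the 3 with a mean TPM of at least 1, which hepatocytes also express and which was higher with G108 on SP (log2 fold change 1.25, limma adjusted p = 0.045). Ucp1 was at or near 0 in every mouse (at most 0.0249 scaled TPM). Adipocyte markers summed to 3.88 to 21.8 scaled TPM over all libraries and exocrine pancreas markers to 6.32 to 12.2, each with 1 of 7 genes at a mean TPM of at least 1. Kupffer cell markers summed to 21.5 to 72.3 and kidney markers to 0.0122 to 0.116. Their part in the results was not tested.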
